A study of Rattus norvegicus with 6 samples.

Results

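The genes of creatine synthesis and the creatine kinases were examined in primary rat oligodendrocyte precursor cells (OPCs), which divide and can mature into the oligodendrocytes that make myelin. The set held 6 of the 32883 genes counted in the series: Gatm and Gamt, which make creatine, and the creatine kinases Ckb, Ckm, Ckmt1 and Ckmt2. They were taken by gene name as a biochemical family, chosen by the difference in Ckmt1 counts between the groups, which was already known to be large. The differences of the 6 genes are therefore given as a description, and counts of them past a threshold are printed only beside the share of all genes. The OPCs came from the cerebral cortices of newborn Sprague Dawley rats, at postnatal day 0 (P0) by the labels, while the Methods of the study give a range of days from birth. They were shaken off a mixed glial culture grown in serum and replated in Neurobasal with B27 and N2. The ZJU-37 group (3 libraries) received 5 µM ZJU-37, an inhibitor of the kinase RIPK1, and the DMSO group (3 libraries) the same volume of the solvent. The labels give 36 h of treatment for both groups, whereas the Methods of the study give a shorter time. The study calls the libraries biological repeats in its Methods and plate wells in a legend, and the labels do not tie them to separate litters, so p-values measure the spread between these libraries, which may be partly technical.

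Creatine is made in 2 steps. Glycine amidinotransferase (Gatm) moves an amidino group from arginine to glycine in the mitochondria and yields guanidinoacetate and ornithine, and guanidinoacetate methyltransferase (Gamt) methylates guanidinoacetate with S-adenosylmethionine as the donor. Creatine kinases then move a phosphate between ATP and creatine, so that phosphocreatine serves as a store and shuttle of high-energy phosphate. Ckb is the cytosolic form of brain, Ckm the cytosolic form of striated muscle, Ckmt1 the ubiquitous and Ckmt2 the sarcomeric form of the mitochondrial intermembrane space. Cells of the oligodendrocyte lineage are known for high Ckb and for Gamt. Slc6a8 carries creatine into cells.

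Poly-A RNA was sequenced, and library totals ran from 13935865 to 24097927 counts. OPC markers were present in all 6 libraries, with summed levels of 1185 to 1636 FPKM (fragments scaled to gene length and library size) over 8 genes. Of these, 4 rose (Pdgfra, Cspg4, Olig1 and Ptprz1), against 9.43% of all tested genes, and 3 fell (Sox10, Gpr17 and Nkx2-2), against 5.58%. In the fit without DMSO replicate 2, and in that without DMSO replicate 3, 1 rose and 2 fell. Markers of other cells were present as well. The 12 microglial markers summed to between 1804 and 3238 FPKM with DMSO and between 1329 and 2773 FPKM with ZJU-37, and 0 of 12 passed the test in edgeR, DESeq2 or limma-voom, nor at an unadjusted p under 0.05. The 12 markers of mature oligodendrocytes summed to between 3823 and 7497 FPKM with DMSO and between 1607 and 3297 FPKM with ZJU-37. Of these 12, 2 (Cnp and Myrf) fell and 0 rose (adjusted p under 0.05, edgeR's quasi-likelihood test), and 6 fell with DESeq2. Of 10 astrocyte markers, 1 (Aldoc) was lower, and their sums of 316 to 479 FPKM with DMSO and 262 to 385 FPKM with ZJU-37 overlapped. With the replicate number as a block, 7 markers of mature oligodendrocytes, 6 of microglia and 5 of astrocytes fell, and 0 of any of these lists rose, while that fit called 15.9% of all tested genes lower. In such bulk libraries fewer cells of a type and less RNA per cell cannot be told apart.

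Values of single libraries are given below in the order of the replicate numbers 1, 2 and 3. The 6 genes fell into 4 levels. Ckb was by far the most abundant, with 1373 ± 51.6 FPKM in the DMSO group (SD, n = 3 libraries), which is rank 24 among all counted genes. Gatm and Gamt followed at 76.5 ± 12.2 and 69.8 ± 12.8 FPKM, and these neighbours overlapped between libraries. Ckmt1 had 1.49 ± 0.456 FPKM. The forms of striated muscle were at or near 0 in every library. In the ZJU-37 group the order was the same, but the gaps had changed. Ckb stood at 1618 ± 47.2 FPKM (rank 18), Gatm at 109.6 ± 13.1, Gamt at 40.0 ± 7.15 and Ckmt1 at 17.4 ± 3.09 FPKM (SD, n = 3 libraries each), and no 2 of these 4 genes overlapped. The rank of Ckmt1 moved from 12890 to 5508 and that of Gamt from 1275 to 2425.

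**Figure D1:**
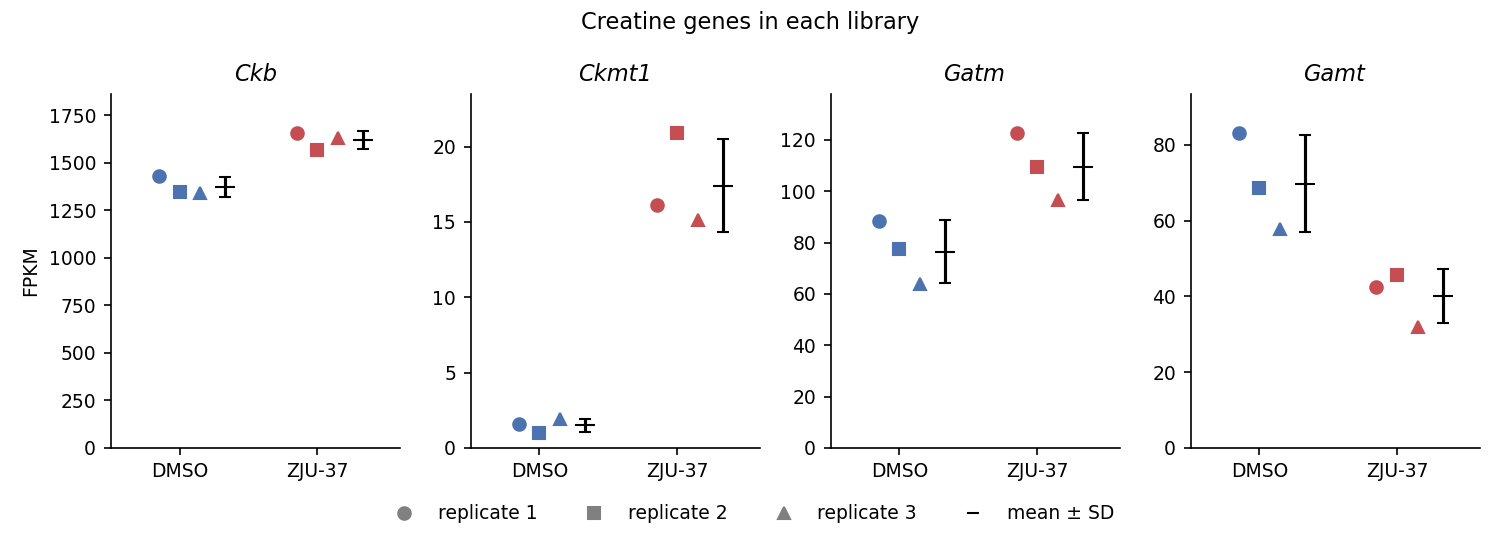
FPKM (linear axis from 0) of Ckb, Ckmt1, Gatm and Gamt in the 3 DMSO and the 3 ZJU-37 libraries, each gene on its own scale; symbols are single libraries, the black bar is the mean ± SD. In each of the 4 genes the libraries of the 2 groups lie apart, with Ckb, Ckmt1 and Gatm above and Gamt below the DMSO libraries. The groups also lay apart in 35.2% of all tested genes, and these 4 were chosen with this contrast known.

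The proximal promoters of the 4 detected genes are shown because these genes lay at very different levels and did not all differ in the same direction. Each sequence runs 5′ to 3′ from 250 bases before to 50 bases after an annotated start site (RefSeq, build GRCr8): Ckmt1 at chr3:128784232-128784531 (plus strand), Ckb at chr6:136553415-136553714 (minus strand), Gatm at chr3:130129044-130129343 (minus strand) and Gamt at chr7:10099034-10099333 (plus strand). Capitals mark 3 short motifs found on either strand, TATAAA (the TATA box), CCAAT (the CCAAT box) and GGGCGG (the core of the GC box; read as its reverse complement on the minus strand), and CACGTG was searched as well without a match.
Ckmt1: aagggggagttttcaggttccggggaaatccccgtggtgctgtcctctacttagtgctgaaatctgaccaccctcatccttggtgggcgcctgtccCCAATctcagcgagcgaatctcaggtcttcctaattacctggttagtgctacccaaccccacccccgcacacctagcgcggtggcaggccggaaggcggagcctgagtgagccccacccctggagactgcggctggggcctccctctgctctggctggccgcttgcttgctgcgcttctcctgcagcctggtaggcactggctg
Ckb: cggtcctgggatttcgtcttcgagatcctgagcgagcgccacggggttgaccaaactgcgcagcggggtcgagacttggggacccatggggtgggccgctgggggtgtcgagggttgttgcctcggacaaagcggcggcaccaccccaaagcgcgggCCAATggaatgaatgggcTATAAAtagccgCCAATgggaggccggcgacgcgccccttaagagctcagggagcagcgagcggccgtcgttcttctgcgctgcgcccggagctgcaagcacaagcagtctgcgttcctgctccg
Gatm: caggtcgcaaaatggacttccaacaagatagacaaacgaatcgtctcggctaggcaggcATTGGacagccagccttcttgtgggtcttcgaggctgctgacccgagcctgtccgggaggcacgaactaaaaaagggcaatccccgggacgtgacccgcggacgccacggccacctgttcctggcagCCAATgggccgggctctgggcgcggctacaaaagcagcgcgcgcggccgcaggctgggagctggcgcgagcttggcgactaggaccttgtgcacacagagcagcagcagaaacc
Gamt: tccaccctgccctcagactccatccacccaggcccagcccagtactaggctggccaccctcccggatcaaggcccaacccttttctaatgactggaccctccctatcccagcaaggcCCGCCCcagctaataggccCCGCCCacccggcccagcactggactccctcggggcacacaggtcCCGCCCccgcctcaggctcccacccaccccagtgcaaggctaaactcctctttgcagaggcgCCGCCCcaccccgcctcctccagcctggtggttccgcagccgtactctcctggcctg

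CCAAT was found in 3 of the 4 windows, those of Ckmt1, Ckb and Gatm. The Ckb window held TATAAA from -75 to -70 before the start site, between a CCAAT from -93 to -89 and another from -63 to -59. The Gatm window held 2 CCAAT, from -64 to -60 and, on the opposite strand, from -191 to -187. The Ckmt1 window held 1 CCAAT from -154 to -150 and none of the other motifs. The Gamt window held 4 GGGCGG, all on the opposite strand, and no CCAAT or TATAAA. Among 33469 promoter windows of the same length, TATAAA was found in 14.2%, CCAAT in 37.5%, GGGCGG in 33.1% and CACGTG in 6.42%. These are matches of letters and do not show that a factor binds there.

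Ckmt1, the mitochondrial creatine kinase outside striated muscle, showed the largest difference of the set. It had 36, 30 and 61 counts with DMSO and 497, 733 and 624 counts with ZJU-37. On the scale of CPM, counts scaled to library size with TMM factors, these were 2.63, 1.69 and 3.24 CPM against 26.9, 35.5 and 25.8 CPM. All 3 ZJU-37 libraries lay far above all 3 DMSO libraries. The fitted log2 fold change was 3.54 with a standard error of 0.25, or 11.6-fold, higher than that of 99.95% of the 14670 tested genes. Within the pairs of equal replicate number the log2 difference was 3.35, 4.39 and 2.99. The pair of replicate 2 combined the lowest DMSO and the highest ZJU-37 library. With limma on log2(FPKM + 1) the log2 fold change was 2.89.

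The table places Ckmt1 on the plus strand of chromosome 3, at 113318563 to 113324461, in a build that the table does not name. Its whole span lies inside that of Ppip5k1, which encodes an inositol pyrophosphate kinase and runs on the minus strand from 113272850 to 113445435. The library kit as described is not known to keep strand, so a read in an exon of both genes could not be assigned by strand. Ppip5k1 had 102, 87.4 and 93.4 CPM with DMSO and 94.8, 91.7 and 88.2 CPM with ZJU-37. Its groups overlapped, and its log2 fold change of -0.04 (standard error 0.07) did not pass the test (adjusted p = 0.761, edgeR's quasi-likelihood test over all genes). The other counted genes within 50 kb, a window chosen after the values were seen, gave no common direction. Catsper2, a sperm calcium channel subunit, differed by -0.14 ± 0.22 on the log2 scale (SE; adjusted p = 0.731, edgeR). Map1a, a microtubule-associated protein, fell by 0.83 on the log2 scale (standard error 0.15, adjusted p = 0.0128, edgeR). Strc, which encodes stereocilin and ends next to Ckmt1 on the minus strand, had 2, 2 and 4 counts with DMSO and 9, 8 and 12 counts with ZJU-37, too few to be tested. These counts of Strc were higher in all 3 ZJU-37 libraries, as those of Ckmt1 were. The part of shared reads in the Ckmt1 counts was not tested.

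**Figure D2:**
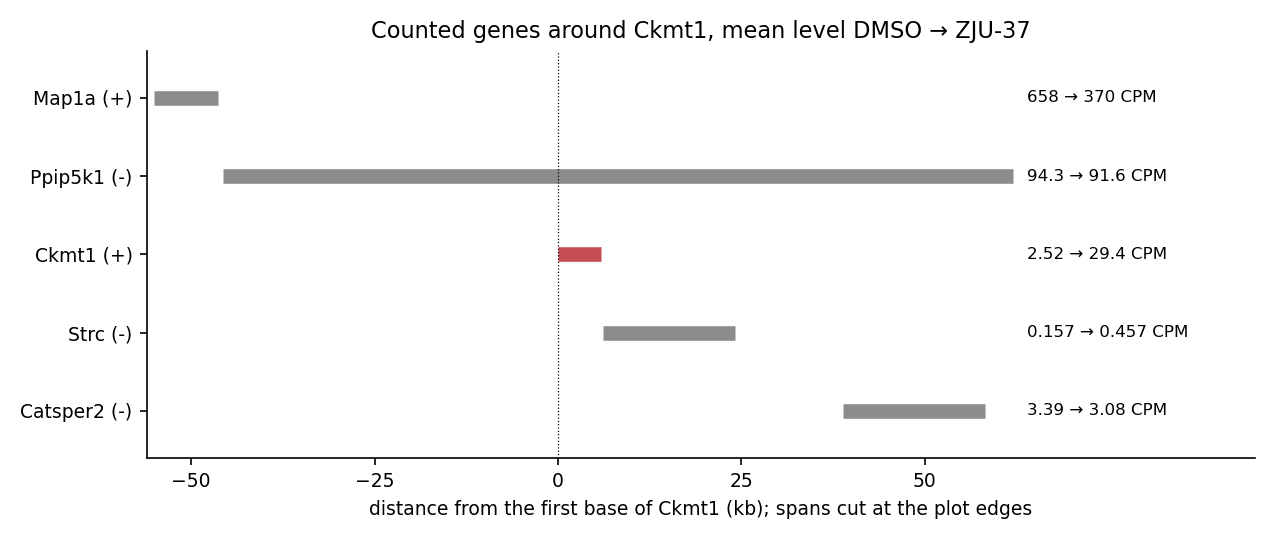
Spans of the counted genes around Ckmt1 (a gene model of 78 bases left out), as distance in kb from the first base of Ckmt1, with strand in brackets and the mean CPM of 3 DMSO and 3 ZJU-37 libraries at the right. Ckmt1 lies inside Ppip5k1, whose mean was 94.3 CPM with DMSO and 91.6 CPM with ZJU-37, while Ckmt1 had 2.52 and 29.4 CPM.

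Ckb, the cytosolic brain form, accounted for nearly all creatine kinase transcripts in both groups. It lies on the minus strand of chromosome 6 at 136142956 to 136145837, with no overlapping gene. Its levels were 1432, 1345 and 1340 FPKM with DMSO and 1656, 1565 and 1631 FPKM with ZJU-37. The groups did not overlap, but the difference was small, with a log2 fold change of 0.24 (standard error 0.07), or 1.18-fold. The pairs differed by 0.19, 0.24 and 0.29 on the log2 scale. Ckb alone took between 0.188% and 0.203% of all counts of a DMSO library and between 0.223% and 0.245% of those of a ZJU-37 library. In FPKM it exceeded Ckmt1 by a factor of 700 to 1332 with DMSO and of 74.8 to 107.7 with ZJU-37. The share of Ckmt1 in the summed FPKM of the 4 kinases was 0.108%, 0.0750% and 0.143% in DMSO replicates 1, 2 and 3, and 0.963%, 1.32% and 0.920% in ZJU-37 replicates 1, 2 and 3. The mitochondrial form thus remained a minor transcript in all libraries. The summed FPKM of the 4 kinases was 1374 ± 51.6 with DMSO and 1635 ± 44.4 with ZJU-37 (SD, n = 3 libraries each).

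Ckm and Ckmt2, the kinases of striated muscle, were at or near the floor of 3 counts. Ckmt2 had 0 counts in each of the 6 libraries, which allows up to between 0.0975 and 0.173 FPKM, the level of 3 counts at these depths (a limit for counting error). It lies on chromosome 2 at 21422818 to 21437193 on the minus strand. Ckm, on the plus strand of chromosome 1 at 80321585 to 80331841, had 3, 2 and 2 counts in the DMSO libraries and 0, 4 and 2 counts in the ZJU-37 libraries. Its span overlaps in part that of the gene model AABR07002677.1, which had at most 4 counts. Both failed the filter on low counts, and no fold change is given. The 13 markers of striated muscle found in the table summed to between 11.1 and 16.9 FPKM, largely from Tnnt1 and Myh6, and 2 of them (Tnni2 and Myod1) had 0 counts in all libraries.

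Gatm, the enzyme of the first step of synthesis, was higher with ZJU-37. It lies on the minus strand of chromosome 3 at 114711562 to 114728410, with no overlapping gene. It had 88.3, 77.3 and 63.8 FPKM with DMSO and 122.7, 109.4 and 96.6 FPKM with ZJU-37. The lowest ZJU-37 library was above the highest DMSO library, and in both groups replicate 1 was the highest and replicate 3 the lowest. The log2 fold change was 0.52 (standard error 0.14), or 1.43-fold, and the pairs differed by 0.45, 0.52 and 0.61. The standard error was 0.05 in the fit blocked on replicate number.

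Gamt, the methyltransferase of the second step, differed in the other direction. It lies on the plus strand of chromosome 7 at 12314848 to 12317998, with no overlapping gene. It had 83.1, 68.5 and 57.6 FPKM with DMSO and 42.3, 45.7 and 32.0 FPKM with ZJU-37. All ZJU-37 libraries were below all DMSO libraries. The log2 fold change was -0.80 (standard error 0.18), which is 1.74-fold lower, and the pairs differed by -0.995, -0.566 and -0.840. A value this low or lower was found in 3.48% of the tested genes. The summed markers of mature oligodendrocytes were lower in the same libraries, at 7497, 5438 and 3823 FPKM with DMSO and 2927, 3297 and 1607 FPKM with ZJU-37. As for Gamt, DMSO replicate 1 was the highest and ZJU-37 replicate 3 the lowest. Their part in the difference of Gamt was not tested.

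Gatm and Gamt differed in opposite directions, and so their ratio within a library differed more than either gene. The ratio of Gatm to Gamt in FPKM was 1.06, 1.13 and 1.11 with DMSO and 2.90, 2.39 and 3.02 with ZJU-37. The means were 1.10 ± 0.0341 and 2.77 ± 0.333 (SD, n = 3 libraries each). The spread of the ratio among the DMSO libraries was small, although both genes varied among them.

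**Figure D3:**
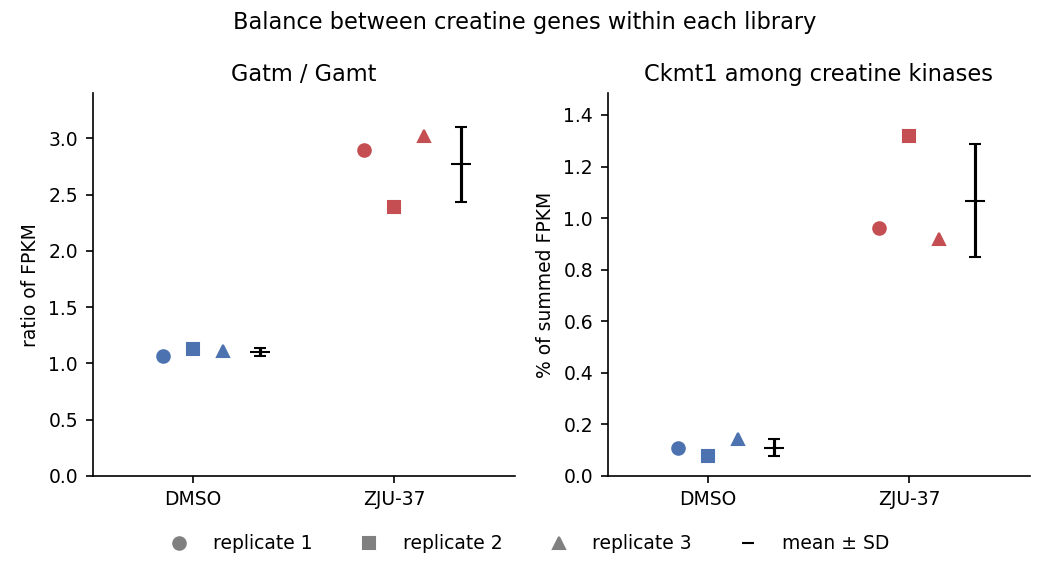
Left, the ratio of Gatm to Gamt in FPKM; right, the share of Ckmt1 in the summed FPKM of the 4 creatine kinases, in percent, in the 3 DMSO and 3 ZJU-37 libraries (linear axes from 0, black bar mean ± SD). The ratio lies between 1.06 and 1.13 with DMSO and between 2.39 and 3.02 with ZJU-37, and the share of Ckmt1 stays at or under 1.32%.

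Of the 6 genes, 4 were tested. In the fit over all genes, 3 of these 4 were past an adjusted p of 0.05 (edgeR's quasi-likelihood test), against 15% of all tested genes. Ckmt1 and Gatm were the 2 higher ones, against 9.43% of all tested genes, and Gamt the 1 lower, against 5.58%. Ckb was past it with DESeq2, after thinning to the smallest library and in the fit blocked on replicate number, and in none of the other alternatives. In the blocked fit 4 of the 4 tested were past it, against 32.1% of all tested genes, with 3 higher against 16.2% and 1 lower against 15.9%. The libraries of the groups did not overlap in 4 of the 4 tested, against 35.2% of all tested genes, with 3 higher against 19% and 1 lower against 16.2%. Nothing is read from these counts, since the genes were chosen with this contrast known. The calls also depended on single libraries. Gatm was not past the threshold without DMSO replicate 2 or 3 or without ZJU-37 replicate 1 or 2, and Gamt was not without DMSO replicate 1 or 2 or without ZJU-37 replicate 1 or 3. Gatm was also not past it with RLE normalization or with limma on log2 FPKM. Over the single libraries left out, the log2 fold changes stayed between 0.41 and 0.64 for Gatm and between -0.92 and -0.64 for Gamt.

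**Figure D4:**
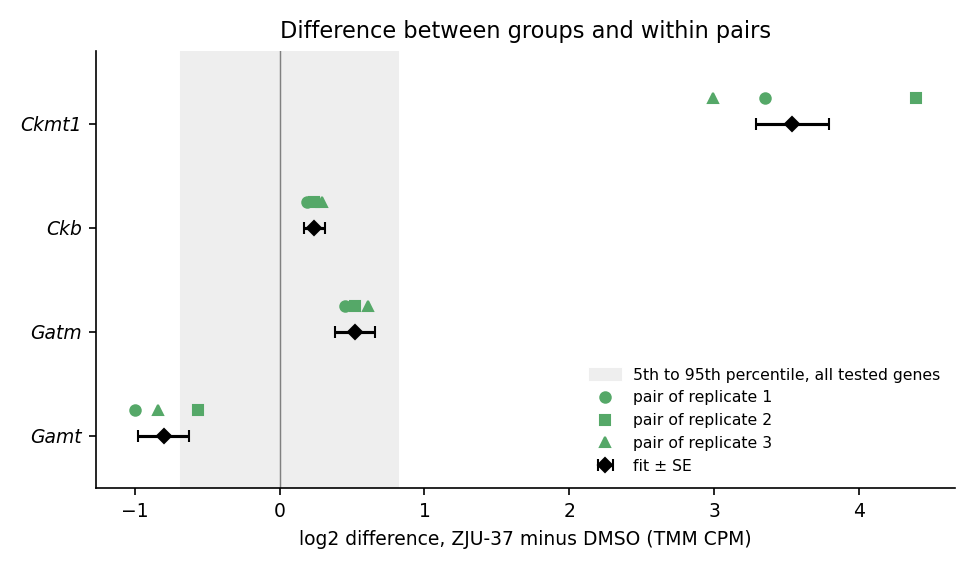
Log2 difference between ZJU-37 and DMSO in TMM-scaled CPM for the 4 detected genes: black diamonds are the fitted values with standard errors, green symbols the 3 pairs of equal replicate number, and the grey band spans the 5th to 95th percentile of all tested genes (-0.68 to 0.82). Each gene keeps its direction in all 3 pairs, as it must where the groups do not overlap. The fitted values of Ckmt1 and Gamt lie outside the band, with the Gamt pair of replicate 2 inside it. The fitted values of Ckb and Gatm lie inside.

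The libraries also allow the genes with the most similar pattern to be named, by Pearson correlation of log2 CPM over the 6 libraries among the 10300 genes whose mean reached 10 CPM. For Ckmt1 these were Tacc1 (r = 0.998), Garem2 (r = 0.997) and Pold3 (r = 0.996), although their log2 fold changes of 0.20, 2.22 and 0.67 were all smaller than that of Ckmt1. For Ckb these were Anapc5, Cstf3 and Ywhaz, with r between 0.997 and 0.998. For Gatm these were Prr18, Faf1 and Tmsb15b2, with r between 0.991 and 0.992. Gamt was most similar to Frmd5, Slain1 and Chn2, with r between 0.998 and 0.999. With 6 libraries in 2 groups such values are common: 621 genes had an r of at least 0.95 with Ckmt1, 575 with Ckb, 149 with Gatm and 317 with Gamt.

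Genes around the creatine pathway were then counted in the same fit, from 7 lists of 83 genes, of which 81 were found and 68 passed the filter on low counts. Of the 68, 9 rose and 0 fell (adjusted p under 0.05, edgeR), which is 13.2% against 15% of all tested genes. The median log2 fold change of the 68 was 0.06, against -0.03 over all tested genes. With the replicate block 15 were higher and 4 lower (27.9% of the 68), against 32.1% of all tested genes.

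Of the creatine transporters, neither passed edgeR's test without the block. With DESeq2 1 of 2 passed. Slc6a8, which takes up creatine across the plasma membrane, had 278, 213 and 187 CPM with DMSO and 167, 160 and 131 CPM with ZJU-37. The groups did not overlap, and replicate 1 was the highest and replicate 3 the lowest in both. The log2 fold change was -0.56 with a standard error of 0.16 (adjusted p = 0.0699, past the threshold with DESeq2, and 2.49e-04 with the replicate block, edgeR, from 2.49e-04 to 0.190 over the alternatives). Slc16a12, a creatine transporter that can release creatine, was close to the floor with 4, 6 and 12 counts with DMSO and 20, 7 and 15 counts with ZJU-37, and its groups overlapped (adjusted p = 0.511, edgeR).

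Among 14 tested genes of the list for arginine and glycine, the substrates of Gatm, 4 rose and 0 fell. That is 28.6%, against 15% of all tested genes. The list also holds genes that break glycine down, such as Gldc, so the count is not one of supply alone. Slc7a3, a cationic amino acid transporter that takes up arginine, rose from 53.2 ± 3.01 to 103.6 ± 8.25 CPM (SD, n = 3 libraries each), or by 0.96 ± 0.08 on the log2 scale (SE; adjusted p = 5.97e-04, edgeR). It was past the threshold in all 17 alternatives. Gldc, the glycine decarboxylase of the glycine cleavage system, rose from 19.7 ± 1.61 to 32.6 ± 1.08 CPM, a log2 fold change of 0.72 (adjusted p = 0.00230, edgeR). Oat, the ornithine aminotransferase that uses the other product of Gatm, rose by 0.39 (adjusted p = 0.00638, edgeR). Slc6a9, a glycine transporter, rose by 0.35 (adjusted p = 0.0313, edgeR), but was past the threshold in 12 of 17 alternatives and lost it without any of DMSO replicates 1, 2 and 3 and ZJU-37 replicates 2 and 3, with an adjusted p of up to 0.113. Slc7a1, another cationic amino acid transporter, had 183 ± 12.3 and 207 ± 20.6 CPM (adjusted p = 0.270, edgeR). Ass1 and Asl, which make arginine from citrulline, had log2 fold changes of -0.08 and -0.29 and did not pass (adjusted p = 0.910 and 0.216, edgeR). In 5 alternatives without the block (RLE and upper-quartile normalization, DESeq2 and limma on both log2 FPKM scales) 1 gene of the list fell. Asl passed with the replicate block (adjusted p = 0.00858, edgeR), as did Gcsh, also of the glycine cleavage system (log2 fold change -0.26, adjusted p = 0.0537, and 0.0175 in the blocked edgeR fit).

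Of 11 tested genes of the methyl supply list, drawn up around the methyl donor of Gamt, 2 rose and 0 fell. That is 18.2%, against 15% of all tested genes. The list also holds genes that act after the donor is used, such as Ahcy. Ahcy, which clears the S-adenosylhomocysteine that Gamt and other methyltransferases release, rose from 77.9 ± 4.21 to 116.9 ± 1.11 CPM (SD, n = 3 libraries each), which is 0.59 ± 0.06 on the log2 scale (SE; adjusted p = 0.00126, edgeR). Shmt1, the cytosolic serine hydroxymethyltransferase, rose by 0.68 (adjusted p = 0.00320, edgeR). Both were past the threshold in all 17 alternatives. Mat2a, the enzyme that makes S-adenosylmethionine outside the liver, had 254 ± 3.00 and 244 ± 0.852 CPM and did not pass (adjusted p = 0.576, edgeR). Shmt2, the mitochondrial form, passed with the block (log2 fold change 0.26, adjusted p = 0.136, and 0.00657 in the blocked edgeR fit).

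The carriers that exchange ATP, ADP and phosphate across the mitochondrial membranes, where Ckmt1 works, showed no call. In 6 tested genes the log2 fold changes lay between -0.05 (Slc25a4, an ADP/ATP carrier) and 0.13 (Slc25a5, another ADP/ATP carrier), and 0 of 6 passed with or without the block. At an unadjusted p under 0.05 there were 0 of 6, and DESeq2 and limma-voom called 0 of 6. Vdac1, a channel of the outer membrane, had 226 ± 7.23 CPM with DMSO and 229 ± 14.7 CPM with ZJU-37 (adjusted p = 0.883, edgeR).

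Of 13 tested kinases that move phosphate between other nucleotides, 2 rose and 0 fell, which is 15.4% against 15% of all tested genes. Nme2 rose from 304 ± 5.94 to 394 ± 8.54 CPM (0.37 ± 0.06 on the log2 scale, SE; adjusted p = 0.00619, edgeR) and Nme1 from 85.4 ± 1.69 to 100.3 ± 0.484 CPM (0.23, adjusted p = 0.0237, edgeR). Both are nucleoside diphosphate kinases of very similar sequence, so reads may have been split between them, and Nme1 lost the call without DMSO replicate 2 or 3 or ZJU-37 replicate 3 (adjusted p of up to 0.0978).

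The energy sensor AMPK and its activators showed 0 calls in 11 tested genes (1 at an unadjusted p under 0.05) with edgeR, 0 with DESeq2 and limma-voom, and 1, Prkag2, with the replicate block (log2 fold change 0.28, adjusted p = 0.169, and 0.0349 in the blocked edgeR fit). Among 11 tested regulators of mitochondrial biogenesis 1 rose, the coactivator Pprc1, by 0.21 on the log2 scale (adjusted p = 0.0456, edgeR). It was past the threshold in 8 of 17 alternatives and lost the call without any of DMSO replicates 1, 2 and 3 and ZJU-37 replicates 2 and 3. With the replicate block 5 of the 11 passed, 4 of them higher (Pprc1, Nrf1, Gabpa and Tfam) and 1 lower. The latter was Ppargc1a, a coactivator that drives mitochondrial genes, with 5.18 ± 0.968 CPM with DMSO and 3.48 ± 0.206 CPM with ZJU-37 (log2 fold change -0.57, adjusted p = 0.104, and 0.0482 in the blocked edgeR fit).

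**Figure D5:**
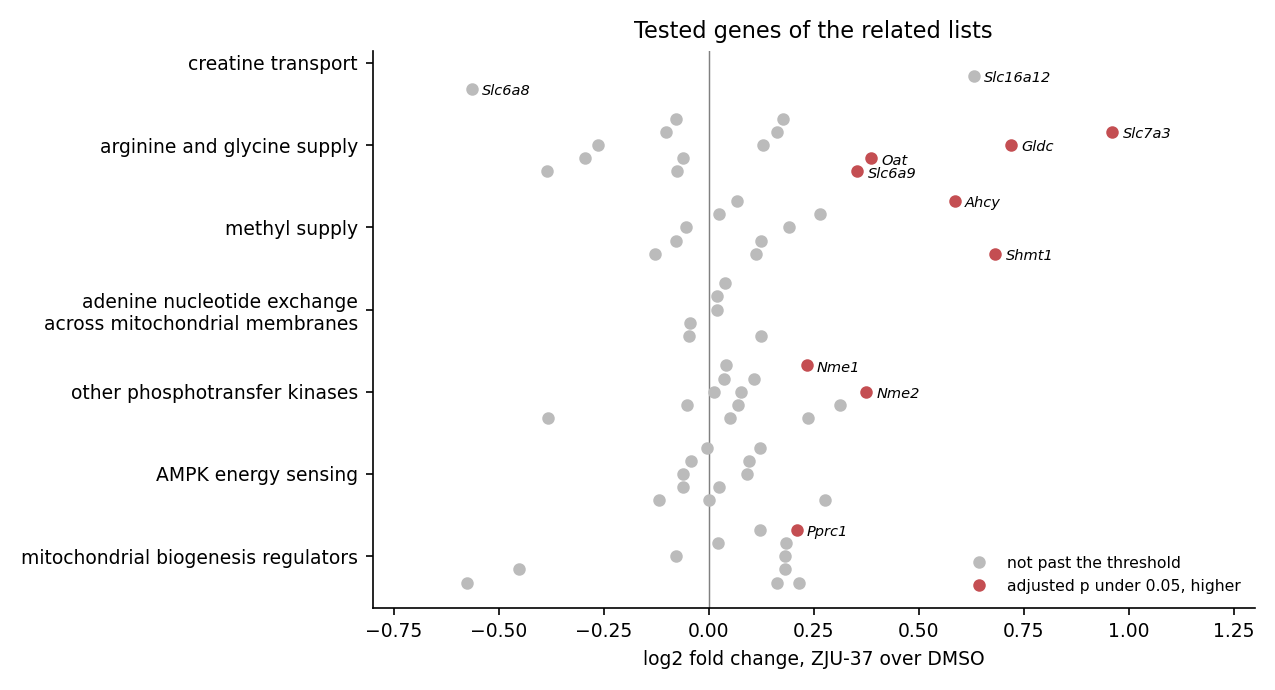
Log2 fold change between ZJU-37 and DMSO of the 68 tested genes in 7 lists around the creatine pathway, fitted without the replicate block; red points are the 9 genes higher at an adjusted p under 0.05, grey points those not past the threshold, and the vertical offset within a list only separates points. Arginine and glycine supply held 4 red points of 14, methyl supply 2 of 11 and the other phosphotransfer kinases 2 of 13. The mitochondrial biogenesis regulators held 1 of 11, and 15% of all tested genes were past the threshold in either direction. Slc6a8 lies at -0.56.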

How the data were processed

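Poly-A RNA of 6 OPC libraries, 3 per group, was sequenced as paired-end reads. Raw counts per gene, made by the authors with featureCounts, were deposited. They also deposited FPKM values, which equal the counts divided by gene length and a library constant. The submitters' processing notes name HISAT2 2.0.5, StringTie 1.3.3b and featureCounts 1.5.0, and the genome build is not given in the sources used here. The authors' table also holds their own DESeq2 fold changes and p-values, which were not used.

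Low counts were removed with filterByExpr (14670 of 32883 genes kept), and the rest were scaled by TMM (factors 0.981 to 1.04) and compared with edgeR 4.0.16 (glmQLFit, robust, glmQLFTest) in R 4.3.3, with Benjamini-Hochberg adjustment over all tested genes and a threshold of 0.05. CPM are on the TMM scale, and each standard error (SE) is the absolute log2 fold change over the root of F. At 3 counts a library had between 0.124 and 0.215 CPM. No 2 libraries were alike within sampling noise (chi-square per degree of freedom at least 11.3). Libraries of equal replicate number resembled each other, although the labels do not state that they are pairs. Deviations from the group means correlated, across genes, with r = 0.394, 0.312 and 0.329 between equal numbers and with -0.271 to -0.0116 between others. Because the deviations within a group cancel out, positive values between equal numbers bring negative ones between others.

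The genes, lists and tests were chosen with earlier results of these data known. All 6 members, Slc6a8 and Slc16a12, up to 3 called genes per direction of each other list, genes overlapping a member and the 3 genes most similar to each detected member were named by rule. Other genes of the lists, the genes near Ckmt1 and the motifs were chosen after values were seen. Alternatives were other normalizations and filters, DESeq2 1.42.0, limma 3.58.1 (voom, log2(FPKM + 1), log2(FPKM + 0.1)), thinning to the smallest library, the replicate block and leaving out each library. The code was tested on simulated data. Older symbols were matched through the RefSeq gene table of GRCr8, in which 17277 genes of the table had a name. The 9 fibroblast and mural markers (1 higher, Cspg4, which is also an OPC marker, and 2 lower only with the replicate block) and the 11 neuronal markers (0 past the threshold with edgeR, 2 at an unadjusted p under 0.05, 1 lower with DESeq2 and 4 lower with the replicate block) were examined as well. The result of 1 listed gene is not reported here.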

Additional observations from a re-analysis of the deposited data

How the results depend on the processing

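The directions of Ckb, Ckmt1, Gatm and Gamt were kept in all 17 alternatives run, which reuse the same libraries. The groups of these genes did not overlap, so leaving out a library could hardly turn a direction, and nothing is read from this. The log2 fold change of Ckmt1 was 2.89 with limma on log2(FPKM + 1), where the pseudocount is close to the level of the DMSO libraries, and 3.31 to 3.78 when single libraries were left out. That of Ckb ran from 0.22 to 0.29 when single libraries were left out, the highest without ZJU-37 replicate 2, that of Gatm from 0.41 to 0.64, and that of Gamt from -0.92 to -0.64. With the replicate block, which pairs libraries of equal number, 4705 genes in place of 2201 had an adjusted p under 0.05 (edgeR) and 19 related genes in place of 9. The block changed no call among the members except that of Ckb. When single libraries were left out, 1306 to 1927 genes and 6 to 10 related genes were past the threshold, and the count over all genes was lowest without DMSO replicate 2 and next lowest, at 1351, without ZJU-37 replicate 3. The cause was not tested. The count of related genes lower with ZJU-37 was 4 with the block, 2 with DESeq2, 1 with RLE normalization, upper-quartile normalization and limma on log2(FPKM + 1) and log2(FPKM + 0.1), and 0 otherwise. Depth limits Ckm, Ckmt2, Slc16a12 and Strc, which had at most 20 counts in any library.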
